A study of Mus musculus with 2 samples.

Results

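The imprinted genes *Igf2*, *H19*, *Cdkn1c* and *Meg3* were followed through single hematopoietic cells grown from the mouse embryo and its yolk sac. They make up 4 of the 11691 genes in the count table. They were chosen from the measurements themselves: the difference in *Igf2* between the libraries, the joint detection of *Igf2* and *H19*, and the few cells that hold most *Cdkn1c* and *Meg3* molecules. These values are therefore given as a description, and no test was made of them. All 4 genes had counts in at least 1 library, and 2 of them (*Igf2* and *H19*) reached the level of 10 CPM (UMIs of a gene per 1000000 UMIs) asked of a gene before it was compared across the whole table.

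C57/BL6 concepti were taken at Theiler stage 12, at 5 to 7 somite pairs (E8.5), and the intraembryonic tissues were separated from the yolk sac. Embryo explants (Em-Ex) and yolk sac explants (YS-Ex) were both grown at the air-liquid interface with SCF, IL-3 and FLT3 ligand for 9 to 10 days. CD31+CD45+c-Kit+CD41- cells were then sorted and captured on a droplet platform that counts transcripts by unique molecular identifiers (UMIs) read next to the poly(A) tail. Each condition is 1 library of cells pooled from several concepti, so a difference between conditions cannot be told apart from a difference between libraries.

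After removal of barcodes with few or many genes or high mitochondrial content, 3071 Em-Ex cells with a median of 12341 UMIs and 2087 YS-Ex cells with a median of 11729 UMIs remained. Most cells carried high mast cell carboxypeptidase *Cpa3*. Cells with at least 40 *Cpa3* UMIs per 10000 are called *Cpa3*-high, and they numbered 2200 in Em-Ex and 1946 in YS-Ex, leaving 871 and 141 other cells. This threshold divides a range of levels, and 284 Em-Ex and 87 YS-Ex cells lay between 30 and 50 UMIs per 10000. In *Cpa3*-high cells the 11 mast cell markers together reached 46621 CPM in Em-Ex against 49584 CPM in YS-Ex. *Cpa3* itself is among the 11, so this sum is partly fixed by the threshold. The marker lists of neutrophil progenitors, macrophages, erythroid cells, megakaryocytes and stroma had a median of 0 per cell. A UMI of such a list was still found in 4.82% (stroma) to 28.5% (macrophages) of the Em-Ex cells. In YS-Ex the shares were 3.39% (neutrophil progenitors) to 32.6% (erythroid cells). The sort genes were detected in *Cpa3*-high cells of both libraries, with 340 (Em-Ex) and 993 CPM (YS-Ex) of *Kit* and 44.6 and 105 CPM of *Ptprc*, which encodes CD45. *Pecam1*, which encodes CD31, was 54.7 and 51.6 CPM, and *Itga2b*, which encodes the CD41 that sorted cells should lack, was 22.9 and 14.9 CPM. The libraries shared 35 barcodes, and without those cells the ratios between libraries and the shares of joint detection given below stayed within their counting intervals. A gene is listed above 0 in a library only where at least 30 of its barcodes hold a UMI, so a gene listed at 0 may have had UMIs in fewer barcodes.

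Genomic imprinting silences a gene on the chromosome from either the mother or the father through DNA methylation laid down in the germ line. *Igf2*, a growth factor of fetal tissues, is made from the paternal chromosome, while the neighbouring long noncoding RNA *H19* is made from the maternal chromosome. Both are driven by shared downstream enhancers, whose access to *Igf2* is set by an insulator that CTCF binds on the maternal chromosome. *Cdkn1c* encodes the cyclin-dependent kinase inhibitor p57, a brake on the cell cycle made from the maternal chromosome, and lies in the neighbouring imprinted domain of *Kcnq1ot1*. *Meg3* is a maternally expressed long noncoding RNA of the *Dlk1* domain. In blood formation these genes are best known from fetal tissues and long-term hematopoietic stem cells, where *Cdkn1c* and the *H19* locus have been linked to quiescence. The counts do not tell the parental copies apart.

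On mouse genome GRCm38 (mm10), *Igf2* is a protein-coding gene at chr7:142650766-142666816 on the minus strand. *H19*, a long intergenic noncoding RNA, lies 72.6 kb away at chr7:142575529-142578143 on the same strand. *Cdkn1c* is at chr7:143458339-143461050, also on the minus strand and 792 kb beyond *Igf2*. *Meg3* is at chr12:109541001-109571726 on the plus strand. *H19* is the host of a microRNA, whose hairpin falls in an exon of 3 of the 7 annotated *H19* transcripts. Its mature forms from RefSeq are shown because an *H19* molecule counted here can also be the precursor of these RNAs, which a poly(A) library does not count. Capitals mark the seed, bases 2 to 8, and the forms have different seeds.
miR-675-5p: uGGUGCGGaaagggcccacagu
miR-675-3p: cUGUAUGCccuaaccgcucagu

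The RefSeq promoter table of GRCm38.p6 holds 4 start sites for *Igf2* and 2 for *Meg3*, and the 250 bases before each were searched on both strands for GGGCGG, the motif of Sp1-type factors. The core promoter element TATAAA was searched in the same way. GGGCGG or its reverse is in 32.7% of all such windows and TATAAA or its reverse in 12.4%. The *Igf2* window closest to the 3′ end of the gene held 2 Sp1-type matches, the next held 1, and the remaining 2 held neither motif. The first *Meg3* window held 2 overlapping matches of the core element, 1 on each strand. These windows are shown as a start region of the growth factor that was compared between libraries and of the member listed at 0 in YS-Ex, with matches in capitals. Counting at the 3′ end does not say which *Igf2* start site was used.
Igf2, chr7:142657497-142657746, minus strand: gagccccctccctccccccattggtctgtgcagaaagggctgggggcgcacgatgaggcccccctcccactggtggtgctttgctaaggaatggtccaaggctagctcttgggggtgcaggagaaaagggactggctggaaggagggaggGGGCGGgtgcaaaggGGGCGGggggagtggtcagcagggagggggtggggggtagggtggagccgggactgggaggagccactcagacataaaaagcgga
Meg3, chr12:109540746-109540995, plus strand: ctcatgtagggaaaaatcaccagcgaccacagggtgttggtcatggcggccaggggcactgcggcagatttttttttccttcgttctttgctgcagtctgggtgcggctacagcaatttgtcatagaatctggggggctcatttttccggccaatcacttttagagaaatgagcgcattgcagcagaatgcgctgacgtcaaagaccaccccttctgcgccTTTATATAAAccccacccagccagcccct

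The first question was how the growth factor and the other imprinted genes compare between embryo- and yolk sac-derived cells over the same *Cpa3* threshold. In *Cpa3*-high cells *Igf2* was 20.3 CPM (95% Poisson interval 18.7 to 22.1) in Em-Ex and 136 CPM (132 to 141) in YS-Ex, so it was 6.70-fold higher in YS-Ex (6.12 to 7.34). *H19* was near the same level in the pooled cells, 595 CPM (586 to 605) in Em-Ex and 526 CPM (517 to 535) in YS-Ex, a ratio of 1.13 (1.11 to 1.16). All such intervals cover counting error only and say nothing about how cells or separate cultures vary. The variance of *H19* UMIs over *Cpa3*-high cells was 43.6 times the mean in Em-Ex and 64.7 times in YS-Ex. The intervals therefore leave out much of the spread between cells.

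*Cdkn1c* and *Meg3* were close to the floor in *Cpa3*-high cells. *Cdkn1c* was 3.76 CPM (3.07 to 4.56) in Em-Ex and 1.27 CPM (0.867 to 1.79) in YS-Ex, which rest on 103 and 32 UMIs. A *Cdkn1c* UMI was found in 3.50% of the Em-Ex cells, at a median depth of 11246 UMIs, and in 1 of the 23 erythroid-like Em-Ex cells described below (4.35%, 0.110 to 21.9), at 22250 UMIs. After thinning to 2000 UMIs the shares were 0.591% and 0 of 23. Over so few erythroid-like cells these shares could not be told apart, and background RNA was not measured. *Cdkn1c* UMIs in most *Cpa3*-high cells are therefore not taken as expression. Of the *Cpa3*-high cells 2, in cluster 5, held 10 and 9 *Cdkn1c* UMIs. *Meg3* had 89 UMIs in Em-Ex *Cpa3*-high cells, 3.25 CPM (2.61 to 4.0), and a single cell held 50 of them. *Meg3* was listed at 0 in YS-Ex, and no ratio is given for it.

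**Figure D1:**
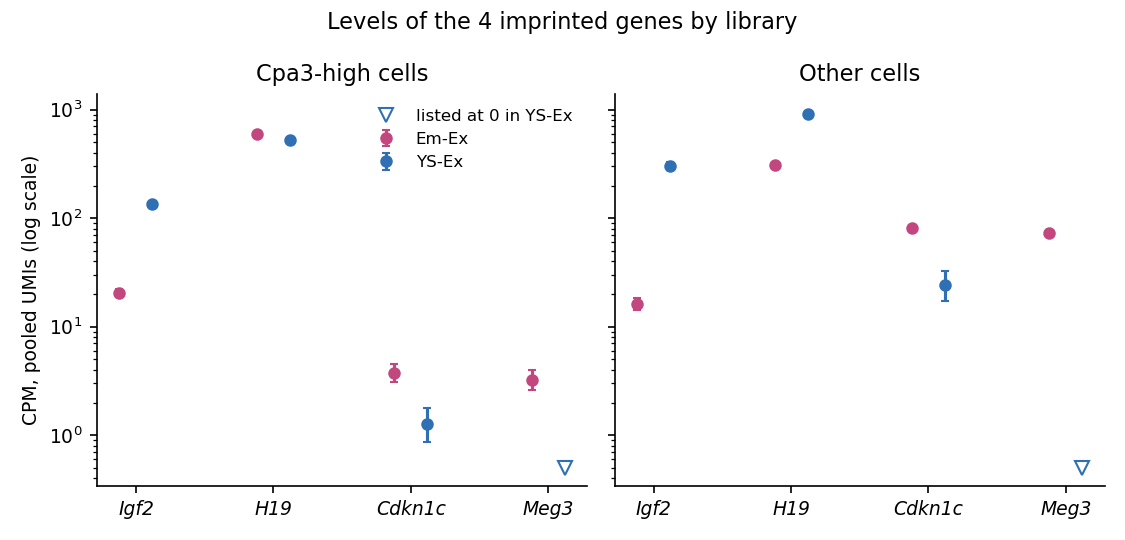
Pooled level of each imprinted gene in CPM (log scale) in *Cpa3*-high cells (left) and all other cells (right), with Em-Ex in magenta, YS-Ex in blue, and bars for exact Poisson 95% intervals, often smaller than the point. *Igf2* is 20.3 CPM in Em-Ex against 136 CPM in YS-Ex on the left, and the open triangles stand for *Meg3*, listed at 0 in YS-Ex and drawn at an arbitrary height.

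Over the whole table, 6998 genes were compared in *Cpa3*-high cells. Of these, 94 (1.34%) were at least 2-fold higher in Em-Ex and 751 (10.7%) at least 2-fold lower, together 12.1%. *Igf2* was 1 of the 751, as its choice required. Of the 6996 compared genes above 0 in both libraries, 9 including *Igf2* had a ratio of Em-Ex to YS-Ex as low as that of *Igf2* or lower. *H19* was within 2-fold.

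More Em-Ex than YS-Ex cells held *H19*, while fewer held *Igf2*. An *H19* UMI was found in 49.1% of Em-Ex and 37.3% of YS-Ex *Cpa3*-high cells, and in 30.9% and 21.3% after every cell was thinned to 2000 UMIs. *Igf2* was found in 12.9% of Em-Ex and 20.7% of YS-Ex cells, and in 4.55% and 12.1% after thinning. Beside this, *H19* was found in 34.8% of the 23 erythroid-like Em-Ex cells before thinning and in 4.35% of them after thinning, where the level was 23.5 CPM (12.1 to 41.0). Whether the UMIs of these 23 cells are background RNA was not tested. A single *H19* UMI in an Em-Ex cell is therefore not taken as expression.

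Among cells with UMIs of a gene, the amount per cell also differed. In YS-Ex 116 of the 1946 *Cpa3*-high cells (5.96%) held 10 or more *Igf2* UMIs, and the highest held 107. In Em-Ex 2 of 2200 cells did, with 12 and 13 UMIs. The difference in pooled *Igf2* was thus made up of more positive cells and of more UMIs in each, with a median of 1.56 *Igf2* UMIs per 10000 in the positive Em-Ex cells and 3.96 in the positive YS-Ex cells. For *H19* the median over positive cells was 4.97 UMIs per 10000 in Em-Ex and 4.47 in YS-Ex, and the upper decile was 38.3 and 48.2.

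Sex-linked transcripts were used to ask whether these ratios held in cells of like sex, since the libraries differed in their share of such cells. Among *Cpa3*-high cells, 372 in Em-Ex and 608 in YS-Ex had UMIs of Y-linked genes and none of *Xist*, the RNA that silences an X chromosome in female cells, and 1605 and 1094 had *Xist* and no Y-linked UMIs. *Igf2* was lower in Em-Ex in each set, at 21 against 147 CPM in the Y-linked set and 19.5 against 111 CPM in the *Xist* set. *H19* took opposite directions. It was 451 CPM in Em-Ex against 606 CPM in YS-Ex in the Y-linked set, and 640 against 419 CPM in the *Xist* set. The pooled *H19* ratio of 1.13 therefore depends on the mix of cells, and no direction is given for *H19* between the libraries.

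The second question was whether *Igf2* and *H19*, which come from opposite parental chromosomes, were read in the same cells. After thinning to 2000 UMIs, *H19* was detected in 84.0% of the 100 *Igf2*-positive Em-Ex cells (95% Clopper-Pearson interval 75.3 to 90.6) and in 28.3% of the 2100 *Igf2*-negative cells (26.4 to 30.3). In YS-Ex the shares were 71.6% of 236 *Igf2*-positive cells (65.4 to 77.3) and 14.3% of 1710 *Igf2*-negative cells (12.7 to 16.1). In both libraries the *Igf2*-positive cells were the shallower ones, with a median of 8519 against 11377 UMIs in Em-Ex and 9364 against 12136 UMIs in YS-Ex before thinning.

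The *Igf2* level was higher at each step of *H19*. Em-Ex *Cpa3*-high cells without *H19* held 5.02 CPM of *Igf2*, those with up to 5 *H19* UMIs per 10000 held 12.2 CPM, those with 5 to 20 held 48.6 CPM, and those above 20 held 83.7 CPM. YS-Ex cells in the same order held 26.9, 57.1, 355 and 916 CPM. At each *H19* level YS-Ex was therefore above Em-Ex, with no overlap of the counting intervals. The 208 YS-Ex cells in the highest step, 10.7% of the *Cpa3*-high cells, held 60.3% of their *Igf2* UMIs, and the 234 Em-Ex cells in that step (10.6%) held 40.3%.

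**Figure D2:**
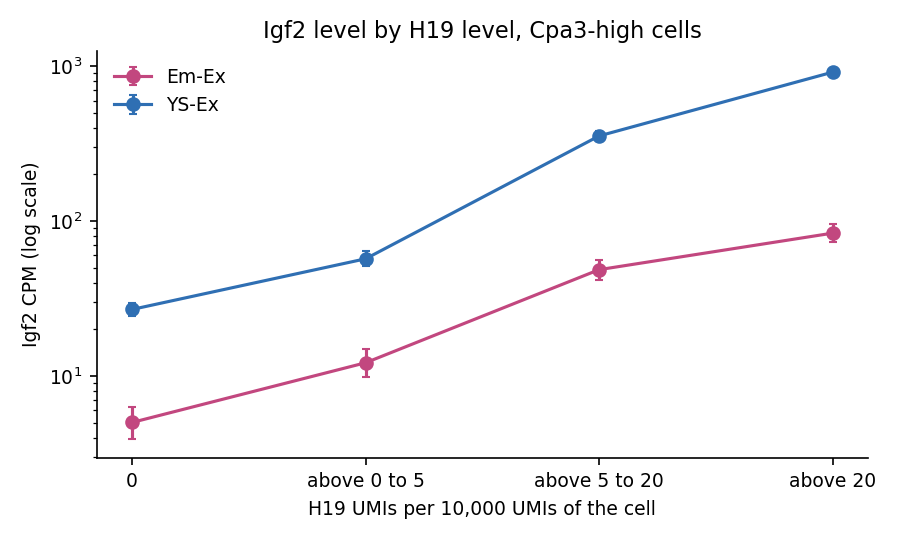
Pooled *Igf2* level (CPM, log scale) of *Cpa3*-high cells grouped by their *H19* UMIs per 10000 UMIs, with Em-Ex in magenta, YS-Ex in blue and bars for exact Poisson 95% intervals. *Igf2* goes from 5.02 to 83.7 CPM in Em-Ex and from 26.9 to 916 CPM in YS-Ex, and the blue points lie above the magenta ones in all 4 groups.

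*H19* had more UMIs than *Igf2* in both libraries (16302 and 556 in Em-Ex, 13277 and 3435 in YS-Ex), and was detected in more cells, so detection alone can leave more cells with *H19* and no *Igf2* than the reverse. In Em-Ex 242 cells held both RNAs, 839 held *H19* alone, 41 held *Igf2* alone and 1078 held neither. In YS-Ex the numbers were 298, 428, 104 and 1116. Of the cells with at least 20 *H19* UMIs, 160 of 257 (Em-Ex) and 62 of 213 (YS-Ex) had no *Igf2* UMI. Cells in the highest *H19* step held a mean of 0.957 *Igf2* UMIs in Em-Ex and 9.96 in YS-Ex, so at this depth a count of 0 in Em-Ex does not show that *Igf2* was absent. Over all *Cpa3*-high cells there were 3.41 *Igf2* UMIs per 100 *H19* UMIs in Em-Ex and 25.9 in YS-Ex.

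Across cells the Pearson correlation of *Igf2* with *H19*, on ln(1 + UMIs per 10000), was 0.387 over the 2200 Em-Ex cells and 0.617 over the 1946 YS-Ex cells. These points share a library and a sequencing depth, and most cells are at 0 for *Igf2*. Cells with UMIs of both *Xist* and Y-linked genes, which can be doublets of male and female cells, numbered 82 and 78, and 11 and 18 of them held both *Igf2* and *H19*. Without them the *H19* shares of *Igf2*-positive cells were 84.5% and 72.1%.

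**Figure D3:**
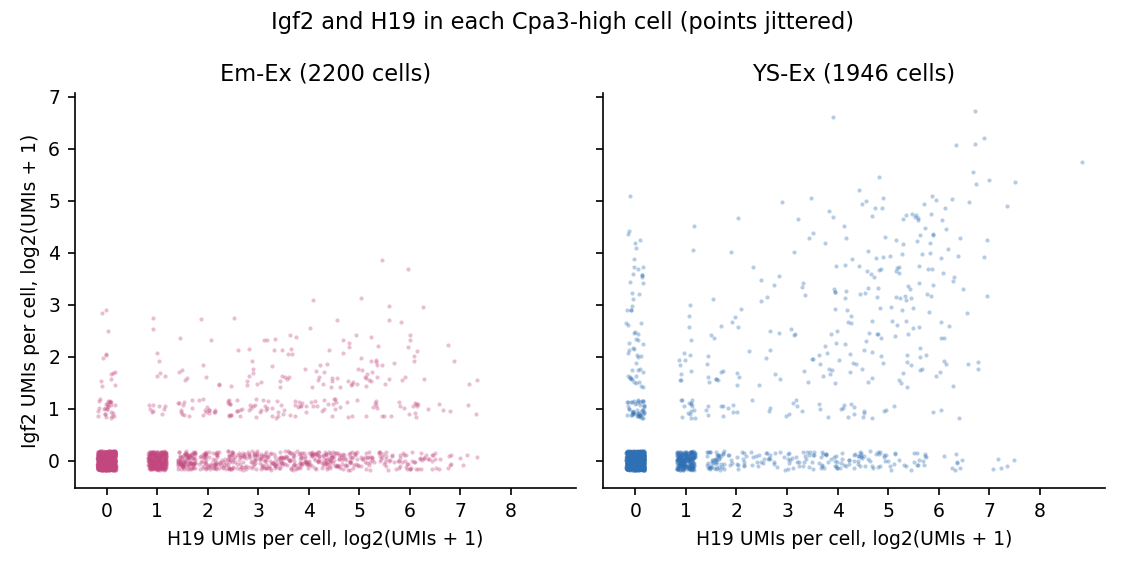
Each point is 1 *Cpa3*-high cell, with its *H19* UMIs on the x axis and its *Igf2* UMIs on the y axis, both as log2(UMIs + 1) with a small random shift, in Em-Ex (left, 2200 cells) and YS-Ex (right, 1946 cells). YS-Ex cells reach 107 *Igf2* UMIs and Em-Ex cells 13, while *H19*-positive cells without *Igf2* line the x axis in both.

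By the mean correlation over both libraries, *H19* was the gene most like *Igf2* in *Cpa3*-high cells (0.502). Next came *Mcpt2* (0.341), a chymase of mucosal mast cells, *Atp1b1* (0.307), a sodium pump subunit, *Mcpt1* (0.296), the other mucosal chymase, and *Alox5ap* (0.295), which serves leukotriene synthesis. For *H19* the order was *Igf2*, *Mcpt2* (0.413), *Atp1b1* (0.387), *Rgs13* (0.357), a regulator of G-protein signalling, and *Mcpt1* (0.347). For *Cdkn1c*, in Em-Ex alone, they were *Gm10827* (0.333), *Tnni1* (0.237), a troponin, and *Cth* (0.205), a cysteine-making enzyme, which rest on few UMIs. For *Meg3* the highest in Em-Ex were *Serpinh1* (0.753), a collagen chaperone, *Col4a1* (0.735), a basement membrane collagen, the transcription factors *Ebf1* (0.571) and *Foxc1* (0.528), and *Igfbp7* (0.516), a secreted IGF-binding protein, over only 16 *Cpa3*-high cells with *Meg3*.

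Clusters were then formed without the 4 genes or any other imprinted gene, with the libraries brought together by mutual nearest neighbors, and 14 were found. *Igf2* and *H19* were highest in the *Cpa3*-rich part of the data in cluster 9, led by *Mcpt1*, *Mcpt2* and *Clec4a2*, with *Itga2b* also among its 10 leading genes. Its 204 Em-Ex cells held 99.1 CPM of *Igf2* (84.9 to 115) and its 68 YS-Ex cells 1785 CPM (1677 to 1898). *H19* in the same cells was 1871 CPM (1808 to 1936) in Em-Ex and 3870 CPM (3710 to 4034) in YS-Ex. In YS-Ex, 86.8% of cluster 9 cells held *Igf2* and 91.2% held *H19*, against 38.2% and 84.3% in Em-Ex.

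The size of this YS-Ex peak depended on the clusters. With no correction between libraries the highest YS-Ex cluster held 324 CPM of *Igf2* and 1423 CPM of *H19*, and at a lower resolution of 0.5 it held 1282 and 2236 CPM. Cells were also divided by *Mcpt2* itself, a division chosen after seeing these values. Because *Mcpt2* leads cluster 9 and is among the genes most like *Igf2* and *H19*, the order it gives is no separate support. The 119 YS-Ex cells with at least 10 *Mcpt2* UMIs per 10000 held 1251 CPM of *Igf2* and 3554 CPM of *H19*, and the other 1968 cells held 101 and 426 CPM. In Em-Ex the 356 cells over this level of *Mcpt2* held 73.5 CPM of *Igf2* and 1628 CPM of *H19*, and the other 2715 held 14.1 and 396 CPM.

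Among the clusters made up mostly of *Cpa3*-high cells, *Igf2* and *H19* were lowest in cluster 6, led by *Il13*, *Lif* and *Cpb1*, and cluster 8, led by *Cd3g*, *Itga4* and *Nkg7*. In YS-Ex *Igf2* was 4.78 CPM in cluster 6 and 2.95 CPM in cluster 8, and *H19* was 19.1 and 11.8 CPM. The YS-Ex values of *H19* there lay within the interval of cluster 12 (5.00 CPM, 0.127 to 27.8), led by *S100a9*, *S100a8* and *Mmp12*. In Em-Ex *Igf2* was likewise low, 2.23 and 4.66 CPM, while *H19* was 187 CPM (170 to 206) in cluster 6 and 140 CPM (126 to 156) in cluster 8, above the 23.5 CPM of the erythroid-like cells. Of the cells of these clusters, 95.9% in cluster 6 and 86.9% in cluster 8 were *Cpa3*-high.

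Between libraries, 12 clusters had at least 10 cells in each. *Igf2* was lower in Em-Ex, with a counting interval below 1, in 8 of them, by 1.78-fold in cluster 2 (*Layn*, *Pigz*, *Prnp*) up to 18-fold in cluster 9, and the interval held 1 in the other 4, clusters 3, 6, 8 and 12. *H19* was divided. By its counting intervals it was lower in Em-Ex in 5 clusters and higher in 7. Cluster 7, counted as lower, had a ratio of only 0.869 (0.797 to 0.947). In clusters 12 and 3, counted as higher, the YS-Ex level rested on 1 UMI in 14 cells and 11 UMIs in 17 cells. In cluster 1, led by *Igfbp5*, *Dnm3* and *Gpr162*, *H19* was 622 CPM in Em-Ex against 985 CPM in YS-Ex, and *Igf2* 28.1 and 269 CPM. In cluster 4, led by the mitosis genes *Aspm*, *Hmmr* and *Cenpf*, *H19* was 556 and 276 CPM in the opposite order, and *Igf2* 11.1 and 71.7 CPM. There 1 of the 172 YS-Ex cells held 184 of the 927 *H19* UMIs.

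The clusters in which *H19* was lower in Em-Ex were 1, 5 (*Fbp2*, *Cd276*, *Pxdc1*), 7 (*Gm9758*, *Mrgprb2*, *Stmn2*), 9 and 10, the last led by the S phase genes *Ccne2*, *Rrm2* and *Fbxo5*. In cluster 5 *H19* was 720 CPM in Em-Ex against 1141 CPM in YS-Ex, and in cluster 10 it was 731 and 1160 CPM. In cluster 10, 1 of the 81 YS-Ex cells held 432 of the 1864 *H19* UMIs. In the other direction *H19* was 11.9-fold (8.40 to 17.2) higher in Em-Ex in cluster 8, where 1 of the 172 Em-Ex cells held 109 of the 331 UMIs, and 9.79-fold (7.61 to 12.8) higher in cluster 6. In cluster 11, led by *Calca*, *Tnfrsf9* and *Tgm2*, *H19* was 627 CPM in Em-Ex against 229 CPM in YS-Ex while *Igf2* was 14.8 and 150 CPM. There 9 of the 109 YS-Ex cells held *Igf2* at all, and 1 of them held 107 of the 169 UMIs.

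**Figure D4:**
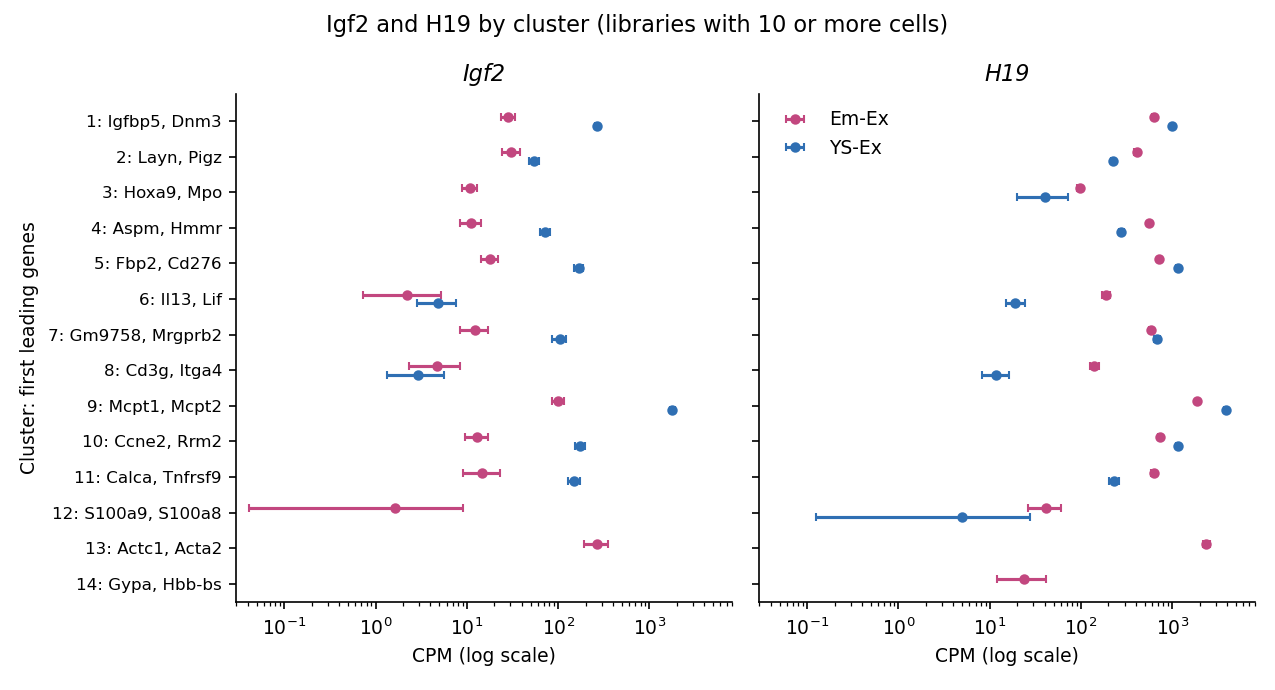
Pooled levels of *Igf2* (left) and *H19* (right) in CPM (log scale) for each cluster and library with at least 10 cells, Em-Ex in magenta and YS-Ex in blue, bars for exact Poisson 95% intervals, rows named by the cluster's first leading genes. Levels of 0 are not drawn. The YS-Ex point for *Igf2* is at 1785 CPM in cluster 9 and at 2.95 CPM in cluster 8, and the *H19* points change sides between clusters.

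The cells outside the *Cpa3*-high set differed in kind between libraries. In Em-Ex 477 of 871 (54.8%) belonged to cluster 3, led by *Hoxa9*, *Mpo* and *BC035044*, and in YS-Ex 17 of 141 (12.1%) did. Em-Ex cells of cluster 3 held 10.8 CPM of *Igf2* (8.84 to 13.1) and 97.0 CPM of *H19* (90.9 to 103), below the Em-Ex *Cpa3*-high cells for both. Cluster 14 was erythroid-like, with 5 of the erythroid markers among its 10 leading genes, and its 23 Em-Ex cells held no *Igf2* UMI (95% interval 0 to 7.22 CPM).

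The third question was which cells held the molecules of *Cdkn1c* and *Meg3*. Over all filtered Em-Ex cells there were 1352 *Cdkn1c* UMIs and 1220 *Meg3* UMIs. The 23 Em-Ex cells of cluster 13, led by *Actc1*, *Acta2* and *Sox11*, held 83.6% of the *Cdkn1c* UMIs and 81.4% of the *Meg3* UMIs. In these cells *Cdkn1c* was 6202 CPM (5846 to 6575), *Meg3* 5450 CPM (5117 to 5800), *H19* 2366 CPM (2148 to 2600) and *Igf2* 263 CPM (194 to 349).

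The genes of the surface markers used in the sort were scarce in this cluster. All 27 cells together held 0 *Ptprc*, 4 *Kit* and 2 *Pecam1* UMIs, and 1 Em-Ex cell, with 104 *H19* and 11 *Igf2* UMIs, held both of the *Pecam1* and 2 of the *Kit* UMIs. The 10 leading genes include the muscle-type genes *Actc1*, *Acta2* and *Myl4* and the matrix genes *Serpinh1*, *Sparc* and *Col3a1*, of which *Sparc* and *Col3a1* are listed at 0 in YS-Ex. With only 2 stromal markers among its 10 leading genes it is given no cell type name. Of its 23 Em-Ex cells 21 had *Meg3*, 20 had *Cdkn1c* and 19 had both. The part of imperfect sorting in these values was not tested.

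Within cluster 13, *Cdkn1c* and *Meg3* were held by different numbers of cells. The 5 cells with at least 100 *Cdkn1c* UMIs, at 128, 133, 210, 244 and 251, held 85.5% of the cluster's 1130 Em-Ex *Cdkn1c* UMIs. Of these, 4 had 173 to 265 UMIs of *Actc1*, cardiac alpha-actin, and the fifth had 2. The same 5 cells had 25 to 119 *Meg3* UMIs. The cell with most *Meg3* held 124 UMIs of it and 1 of *Cdkn1c*, and the third held 103 and 2, so high *Meg3* was also found with little *Cdkn1c*. *Dcn* or *Col3a1*, matrix genes, were detected in 14 of the 23 cells, but in only 1 of the 5 cells rich in *Cdkn1c*.

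**Figure D5:**
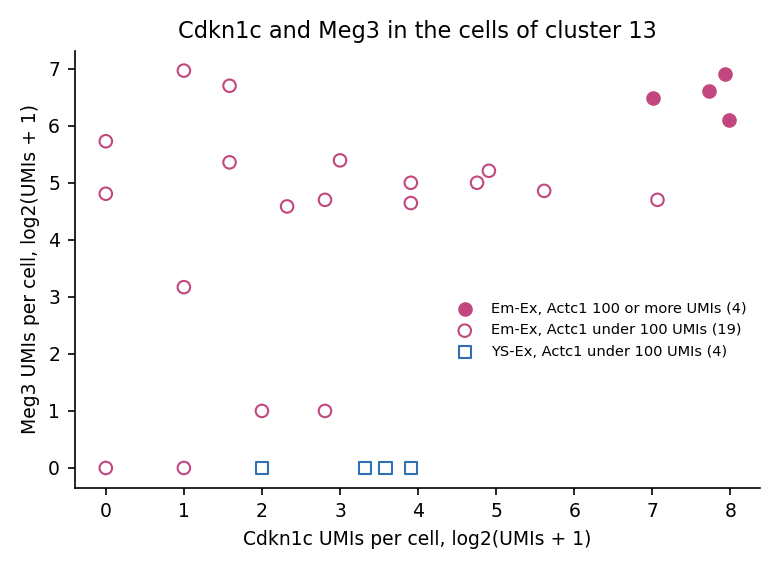
Each point is 1 cell of cluster 13, with *Cdkn1c* on the x axis and *Meg3* on the y axis as log2(UMIs + 1), Em-Ex as magenta circles (filled at 100 or more *Actc1* UMIs) and YS-Ex as blue squares. The 4 filled circles lie at the upper right with 128 to 251 *Cdkn1c* UMIs, and the YS-Ex squares lie at 0 because *Meg3* is listed at 0 in that library.

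The 4 YS-Ex cells of cluster 13 held *Igf2* at 2993 CPM (2421 to 3658), *H19* at 4788 CPM (4057 to 5613) and *Cdkn1c* at 1166 CPM (821 to 1607). They held no UMI of *Actc1*, *Acta2*, *Sparc*, *Dcn* or *Col3a1*, though *Sparc*, *Dcn* and *Col3a1* are listed at 0 throughout YS-Ex. Whether they are the same kind of cell as the Em-Ex cells of this cluster was not tested. In single cells *Igf2* was 10, 16, 21 and 48 UMIs, and *Cdkn1c* was 3, 9, 14 and 11 UMIs in the same order. The 43 *Cdkn1c* UMIs of YS-Ex cells that were not *Cpa3*-high included 37 from these cells.

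Outside cluster 13, clusters of at least 10 Em-Ex cells held 1.96 to 9.88 CPM of *Cdkn1c* and 0 to 13.1 CPM of *Meg3*, in each case highest in cluster 3. *Meg3* was found in 58 Em-Ex cells outside cluster 13, and the 10 of them with at least 5 UMIs held 156 of the 227 UMIs. These 10 were 7 cells of cluster 3, 2 of cluster 5 and 1 of cluster 1. The cell of cluster 1 had 50 *Meg3* UMIs beside 143 *Cpa3* UMIs, 2 *Ptprc* UMIs and 5 *Serpinh1* UMIs. In cluster 3 *Cdkn1c* was in 14.7% of the 477 Em-Ex cells at a median depth of 20652 UMIs, and in 2.52% after thinning to 2000 UMIs, with at most 5 UMIs in a cell.

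The molecules of *Igf2* and *H19* were spread over more cells than those of *Cdkn1c* and *Meg3*. The 1% of *Cpa3*-high cells richest in *Igf2* held 24.1% of its UMIs in Em-Ex and 26.8% in YS-Ex, and the values for *H19* were 16.0% and 20.8%. For comparison, over all genes with at least 100 UMIs the median such share was 11.0% and 10.1%. The 95th percentile was 24.9% in Em-Ex and 24.2% in YS-Ex, so *Igf2* was still among the more concentrated genes. *Igf2* reached 50% of its UMIs with 67 Em-Ex and 53 YS-Ex cells, and *H19* with 114 and 77 cells. The 22 richest Em-Ex cells held 46.6% of the 103 *Cdkn1c* UMIs in *Cpa3*-high cells. For *Meg3* only 16 cells held a UMI, so the 22 richest necessarily held all 89.

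All of the 10 cells with most *Igf2* came from YS-Ex, with 48 to 114 UMIs, 4 of them from cluster 9. In contrast the 10 cells with most *H19*, at 152 to 432 UMIs, were 4 Em-Ex and 6 YS-Ex cells, and 5 of them belonged to cluster 10. These are raw UMIs, and cells of cluster 10 had a median of 20066 UMIs in all, against 7808 in cluster 9. Of the 5 cells of cluster 10, 3 Em-Ex cells had 190, 176 and 152 *H19* UMIs with 0, 0 and 1 *Igf2* UMIs, and the YS-Ex cell with 432 had 60. The 8 cells with most *Cdkn1c*, at 26 to 251 UMIs, were Em-Ex cells of cluster 13, and 3 further cells of that cluster, 2 from Em-Ex and 1 from YS-Ex, held 14 each. Of the 10 cells with most *Meg3*, 9 were Em-Ex cells of cluster 13.

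Other imprinted genes were compared in the same cells. Of 55 further imprinted genes, 36 were in the table and 18 were compared in *Cpa3*-high cells, of which 0 were at least 2-fold higher and 2 at least 2-fold lower in Em-Ex, against 1.34% and 10.7% of all compared genes. This share is near that of the whole table and says nothing particular about imprinted genes. The 2 were *Kcnq1ot1*, the noncoding RNA of the *Cdkn1c* domain, at 86.2 CPM against 207 CPM, and *Zrsr1*, a splicing factor gene within *Commd1*, at 6.06 and 12.3 CPM. The median log2 ratio was 0.02 over the 18 genes and -0.03 over all compared genes. The most abundant were *Gnas*, a G-protein subunit, at 870 and 728 CPM, and *Cd81*, a tetraspanin near *Igf2*, at 582 and 471 CPM. *Dlk1*, the protein-coding gene of the *Meg3* domain, had 36 UMIs in Em-Ex and was listed at 0 in YS-Ex. So were *Nnat*, *Mest*, *Ndn*, *Slc22a18*, *Dcn* and *Ppp1r9a*, which makes 7 of the 36 genes in the table. Of all 11691 genes, 725 were listed at 0 in YS-Ex and 241 in Em-Ex, and the filter on genes with few positive barcodes applies to all of them.

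Of 13 genes of the IGF pathway 9 were in the table and 6 were compared. In Em-Ex 1 was at least 2-fold higher and 1 at least 2-fold lower, against 1.34% and 10.7% of all compared genes. So few genes say nothing particular about the pathway. *Igf1*, the adult growth factor, was higher in Em-Ex at 12.4 against 3.88 CPM, 3.20-fold (2.55 to 4.05), and *Igf1r*, the receptor that both ligands use, was lower at 28.9 against 63.7 CPM, a ratio of 0.454 (0.417 to 0.495). The IGF-binding proteins *Igfbp4* (76.8 and 54.0 CPM) and *Igfbp5* (24.7 and 26.4 CPM) were within 2-fold. *Igf2r*, which clears IGF2 and is itself imprinted, was 7.45 and 9.63 CPM, under the minimum for comparison. The median log2 ratio of the 6 was -0.13, against -0.03 over all compared genes.

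Among 6 CDK inhibitors 3 were compared. In Em-Ex 0 were at least 2-fold higher and 1 at least 2-fold lower, against 1.34% and 10.7% of all compared genes. So few genes say nothing particular about CDK inhibitors. *Cdkn1b*, which encodes p27, was lower in Em-Ex at 11.9 against 52.7 CPM, a ratio of 0.227 (0.20 to 0.256). *Cdkn1a* (332 and 387 CPM) and *Cdkn2d* (89.5 and 78.2 CPM) were within 2-fold, and *Cdkn2a* was listed at 0 in Em-Ex, with 4.71 CPM in YS-Ex. Like *Cdkn1c*, *Cdkn2b* (0.767 and 1.51 CPM) and *Cdkn2c* (8.69 and 6.10 CPM) were under the minimum for comparison. The median log2 ratio was -0.22, against -0.03 over all compared genes.

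Of 12 fetal-type genes 9 were in the table and 5 were compared, with a median log2 ratio of -0.38, against -0.03 over all compared genes. In Em-Ex 1 was at least 2-fold higher and 1 at least 2-fold lower, against 1.34% and 10.7% of all compared genes. So few genes say nothing particular about fetal-type genes. *Hmga2*, a chromatin protein of fetal stem cells, was higher in Em-Ex at 25.4 against 9.59 CPM, and *Arid3a* was lower at 23.3 against 48.1 CPM. The *Igf2* mRNA-binding proteins *Igf2bp3* (39.0 and 41.3 CPM) and *Igf2bp1* (27.8 and 36.3 CPM) were within 2-fold.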

How the data were processed

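Libraries were made by 10x Chromium 3′ capture from sorted Em-Ex and YS-Ex cells. The submitters' processing notes name bcl2fastq 2.19.1.403, Cell Ranger 2.0.1 and mm10. The authors deposited raw UMI counts per gene and barcode, without normalization, in 1 table of 6541 barcodes, and 0 columns were unmapped. Barcodes with 1000 to 5000 genes and at most 5% mitochondrial UMIs were kept, as the study's methods state, leaving 42752370 UMIs in Em-Ex and 27031627 in YS-Ex. No doublet caller was run.

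With 1 library a condition, no test was made. Levels are pooled UMIs per 1000000, with exact Poisson (levels), Clopper-Pearson (shares) or conditional binomial (ratios) 95% intervals, which cover counting error only. Table-wide log2 ratios used a prior count of 0.5. Genes with at least 10 CPM in 1 library were compared, and 2-fold ratios were counted. Clusters came from mutual nearest neighbors (k = 20, sigma = 0.1, written in numpy 2.4.6) on 2000 variable genes without imprinted genes, 100 components, 20 neighbors and leidenalg 0.10.2 at resolution 1. Scripts were tested on simulated data. TMM factors came from edgeR 4.0.16, and positions from GENCODE M21.

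The members and gene lists were chosen with earlier results of these data known. Besides the members, named genes were up to 8 per list past 2-fold, the 3 most abundant per list, the 5 most correlated with each member (at 0.2 or more), the 3 leading genes per cluster, and the sort and marker genes. Genes named with single cells, those listed at 0 in 1 library, and *Igf2r* were chosen after their values were seen. *Cdkn2b*, *Cdkn2c* and *Myl4* were also named outside these rules. Of 6 endothelial markers 0 were in the table, and of 6 visceral endoderm markers 1, *Apoa2*, at 1.35 CPM in Em-Ex *Cpa3*-high cells and listed at 0 in YS-Ex.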

Additional observations from a re-analysis of the deposited data

Results flagged for a closer look

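The level in *Cpa3*-high cells relative to other cells lay on opposite sides of 1 in the 2 libraries, for *Igf2* at 1.25 in Em-Ex (counting interval 1.08 to 1.46) and 0.446 in YS-Ex (0.407 to 0.488). For *H19* the ratio was 1.92 (1.86 to 1.98) in Em-Ex and 0.572 (0.543 to 0.602) in YS-Ex. Each condition is 1 library, so the difference between the libraries was not tested. Of the other cells, cluster 3 made up 54.8% in Em-Ex and 12.1% in YS-Ex, and cluster 9 made up 5.40% and 12.1%.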

How the results depend on the processing

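No paired analysis was possible because each condition has 1 library. For *Meg3* no ratio could be given under any setting, since it is listed at 0 in YS-Ex. The log2 ratio of *Igf2* (Em-Ex to YS-Ex, -2.74) lay between -2.84 and -2.51 over 12 alternatives and was negative in each. It was -2.58 with a mitochondrial limit of 10%, -2.56 with every deposited barcode and -2.51 in the *Xist* set. The log2 ratio of *H19* (0.18) turned to -0.43 in cells with Y-linked UMIs and was 0.61 in the *Xist* set. It was 0.28 with TMM scaling, 0.10 as a mean over cells, 0.14 after thinning, 0.12 with every barcode, 0.11 with at most 4000 genes, 0.15 at a *Cpa3* threshold of 20 and 0.26 without the 10 richest cells. For *Cdkn1c* (1.57) it was 2.33 after thinning and 0.57 in the Y-linked set.

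Without thinning, *H19* was in 43.8% of *Igf2*-negative Em-Ex cells and 27.7% of such YS-Ex cells. Thinning moved the share of UMIs in the richest 1% of cells to 37.6% for *Igf2* in Em-Ex, 18.5% for *H19* in YS-Ex, and 100% for *Cdkn1c* in both libraries. Over all filtered cells it was 16.9% for *H19*, 87.5% for *Cdkn1c* and 94.6% for *Meg3* in Em-Ex. Genes at least 2-fold higher and lower in Em-Ex numbered 94 and 751, 151 and 578 with TMM scaling, 899 and 1518 with no minimum CPM, and 24 and 224 with a minimum of 50 CPM. The highest YS-Ex cluster level of *Igf2* was 324 CPM with no correction, 1282 CPM at resolution 0.5 and 1251 CPM in *Mcpt2*-rich cells, a setting added once the data were seen, and that of *H19* was 1423, 2236 and 3554 CPM. The 100% for *Cdkn1c* is fixed by counts, since after thinning 13 Em-Ex and 3 YS-Ex cells held a UMI, fewer than the 22 and 19 cells of the richest 1%. The cause of the other changes was not tested.

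Depth limits *Cdkn1c* and *Meg3* most, with 32 to 103 UMIs where they are read in *Cpa3*-high cells.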
